A study of Mus musculus with 12 samples.

Results

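The genes described here are 10 components of the unfolded protein response of the endoplasmic reticulum (ER), namely Sdf2l1, Manf, Hspa5, Dnajb9, Dnajb11, Creld2, Pdia4, Hyou1, Herpud1 and Xbp1. They were taken by name, with earlier results of these data known, out of 19935 genes that had a probe set with a single gene symbol on the array. Where a gene had several such probe sets, the one with the highest mean intensity stood for it. All 10 genes were bright enough to be tested, the dimmest value of any of them on any array being 303.6.

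The samples were whole livers of ovariectomized C57BL/6 mice, 3 months old, that had recovered for 1 week before treatment. Wild type (WT) mice were set beside MOER mice, in which per the labels oestrogen receptor alpha is present at the membrane only, and ERKO mice, which per the labels lack that receptor. Mice of each genotype received PPT, an agonist of oestrogen receptor alpha, at 100 µg per day for 3 days, or 0.1 mL of oil over the same time, which gave the groups WT PPT, MOER PPT and ERKO PPT, and WT oil, MOER oil and ERKO oil. RNA of 3 animals was pooled for each Affymetrix Mouse Gene 1.0 ST array, and the work was done a second time, so that each of the 6 groups had 2 arrays. The labels do not say how the MOER and ERKO alleles were made, nor whether separate animals went into the pair of arrays of each group, and each p-value therefore measures only the spread between these arrays. All mice in every group were ovariectomized, so no group had ovaries. In whole liver, fewer cells of a type and less RNA per cell cannot be told apart.

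Values are hybridisation intensities on a linear scale, and differences were fitted on log2(intensity + 16) with limma over 19119 probe sets. A gene was called where the Benjamini-Hochberg adjusted p over all these probe sets was under 0.05. Array medians lay between 77.5 and 85.26. The 10 hepatocyte markers were above the 40th percentile on all arrays. Esr1, the gene of oestrogen receptor alpha, averaged 124 and 127 in MOER PPT and MOER oil livers, 153.5 and 122 in ERKO PPT and ERKO oil livers, and 317 and 356 in WT PPT and WT oil livers. Several pairs of arrays stood apart. The summed intensity of 15 pancreatic acinar markers was 51569 and 41298 in the MOER oil arrays, against 491 to 775 in the other 10. The sum of 10 skeletal muscle markers was 10700.0 and 10953 in the ERKO PPT arrays, against 513 to 701 elsewhere, and the sum of 10 stratified epithelium markers was 6614 and 6566 there. The 2 ERKO oil arrays differed more than 2-fold at 162 probe sets, against 2 to 21 in the other groups.

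Proteins bound for secretion fold in the ER, and hepatocytes secrete most of the plasma proteins. When unfolded protein builds up in the ER, membrane sensors switch on a transcriptional programme that makes more chaperones, folding enzymes and degradation factors. The sensor IRE1 splices the mRNA of Xbp1 into a form that encodes an active transcription factor, and the cleaved factor ATF6 binds the promoters of chaperone genes together with NF-Y. The array sums over all transcripts of a probe set, so it gives the level of Xbp1 mRNA and not its spliced share.

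In WT livers all 10 genes were higher with PPT than with oil. The rise was 5.44-fold for Creld2, 4.69-fold for Sdf2l1, 4.05-fold for Manf and 3.82-fold for Dnajb9, and between 1.93-fold and 2.56-fold for Hyou1, Hspa5, Herpud1, Dnajb11 and Pdia4. Xbp1 had the smallest difference, 1.20-fold. Over all 19119 probe sets, 14.8% were called higher in this comparison, and 2.6% were called higher with a change of at least 2-fold, which 8 of the 10 genes met. The median log2 difference was 1.31 over the 10 genes and 0.02 over all probe sets. Because the genes were chosen with earlier results of these data known, these figures describe the set and are no test of it.

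Hspa5 encodes BiP, the abundant Hsp70 chaperone of the ER lumen that also holds the stress sensors inactive. Its intensity was 9712 and 9527 in the WT PPT arrays, against 3965 and 3892 in the WT oil arrays. The log2 difference was 1.29 ± 0.085 (SE, adjusted p = 1.11e-06). Hyou1, a large Hsp70-like protein that exchanges nucleotide on BiP, gave 1178 and 1214 in WT PPT livers and 446 and 489 in WT oil livers. Both WT PPT values were more than those of every other array, as at 18.1% of all probe sets. The log2 difference was 1.33 ± 0.084 (adjusted p = 8.42e-07).

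The J-domain co-chaperones of BiP moved in the same direction by different amounts. Dnajb9 (ERdj4) had 3227 and 3209 in the WT PPT arrays, against 836 and 849 in the WT oil arrays, a log2 difference of 1.91 ± 0.13 (adjusted p = 1.57e-06). Dnajb11 (ERdj3) had 1104 and 1085 in the WT PPT arrays, against 515 and 490.1 in the WT oil arrays, a log2 difference of 1.10 ± 0.11 (adjusted p = 2.70e-05). Sdf2l1, which forms a complex with ERdj3, had 1756 and 1834 in the WT PPT arrays, against 380.1 and 385 in the WT oil arrays, a log2 difference of 2.18 ± 0.097 (adjusted p = 5.80e-08). The partners in this complex thus differed in size of response, with Sdf2l1 at 4.69-fold and Dnajb11 at 2.18-fold, although no test was run between genes.

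Pdia4, a protein disulfide isomerase (ERp72), gave 3352 and 3217 in WT PPT livers and 1704.0 and 1705 in WT oil livers, a log2 difference of 0.94 ± 0.080 (adjusted p = 7.43e-06). It was the only member with a further probe set of a single symbol, and that dimmer probe set gave 224 and 213 in WT PPT livers and 154 and 150.3 in WT oil livers. The dimmer probe set differed by 0.48 ± 0.23 on the log2 scale and was not called (adjusted p = 0.140). Creld2, an ER protein with EGF-like domains that has been linked to disulfide exchange, gave 1622 and 1683 in WT PPT livers and 304 and 304 in WT oil livers, a log2 difference of 2.38 ± 0.12 (adjusted p = 1.25e-07). Manf, a small ER protein that is secreted and binds BiP, gave 3944 and 3964 in WT PPT livers and 1019.9 and 934 in WT oil livers, a log2 difference of 2.00 ± 0.090 (adjusted p = 6.80e-08). For Pdia4 (the brighter probe set), Creld2 and Manf both WT PPT arrays were above each of the other 10 arrays, as were 18.1% of all probe sets. With 2 arrays in a group this says little.

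Herpud1, an ER membrane protein that takes part in the ubiquitin ligase complex of ER-associated degradation, gave 3896 and 4093 in WT PPT livers and 1750.3 and 1750.1 in WT oil livers. Its log2 difference was 1.18 ± 0.11 (adjusted p = 1.02e-05). Xbp1 gave 2368 and 2337 in WT PPT livers and 1943 and 1983 in WT oil livers, a log2 difference of 0.26 ± 0.086 (adjusted p = 0.0421). The call of Xbp1 was lost in 17 of 26 alternative analyses, 10 of them fits without a single array, with adjusted p between 0.00954 and 0.187. The other 9 calls were kept in every fit without a single array.

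**Figure D1:**
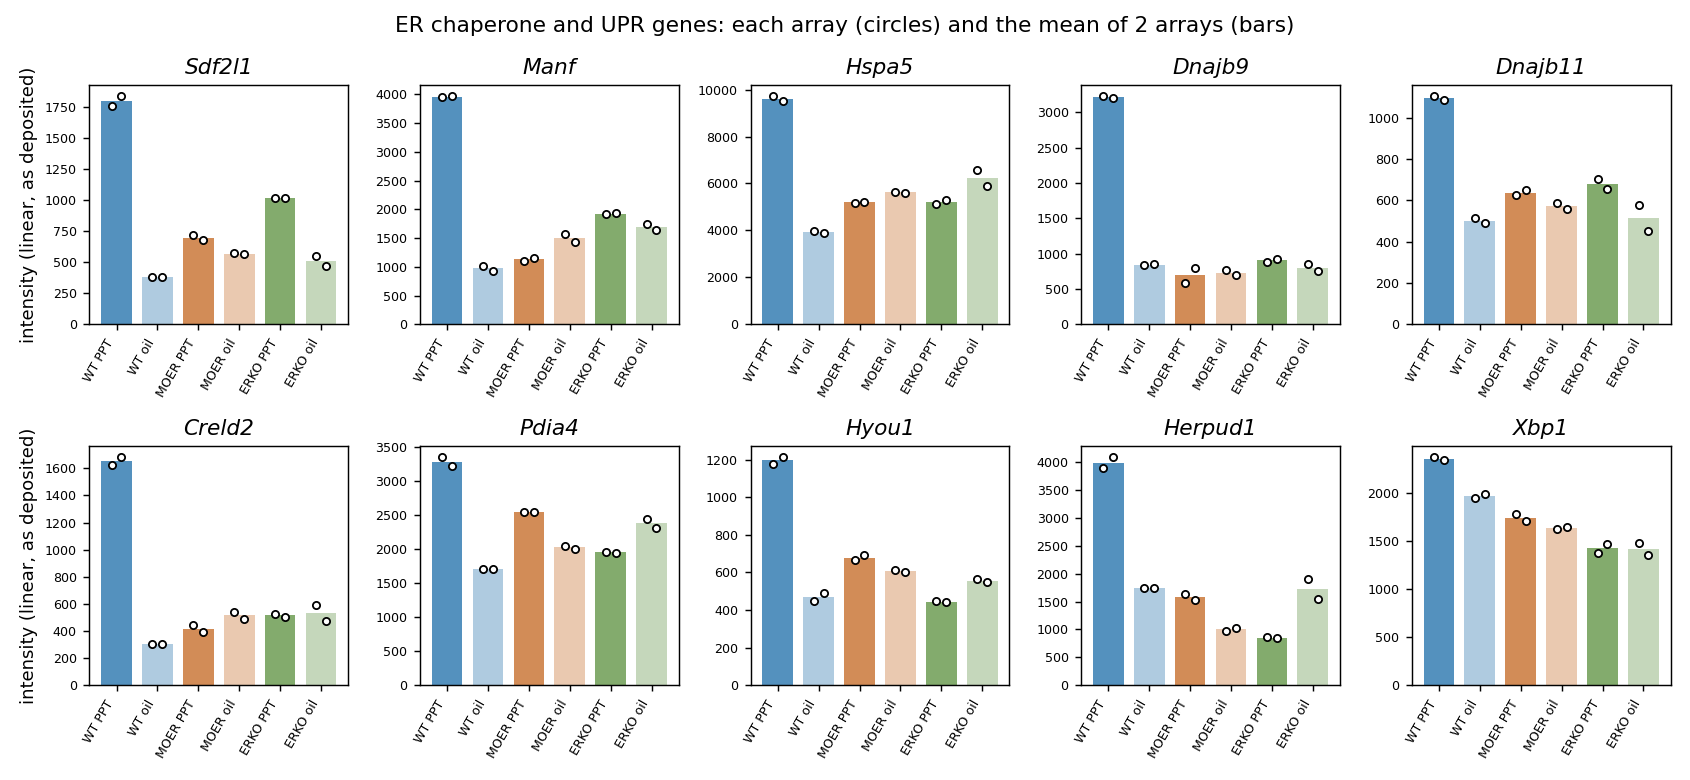
Intensity of the 10 genes on the linear scale as deposited, by group, with PPT left of oil in each genotype. Circles are single arrays and bars the mean of 2 arrays. The WT PPT arrays are the highest for every gene, and Xbp1 has the smallest step, 2352 in WT PPT livers against 1963 in WT oil livers.

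Markers of other cells also moved between the WT groups. The sum of 10 neutrophil markers was 4321 and 4249 in WT PPT livers against 492 and 453 in WT oil livers, with 6 and 3 of the 10 above the 40th percentile on both arrays and none at 0. In the WT PPT livers most of that sum was Prtn3, at 3634 and 3575. The stratified epithelium markers summed to 3696 and 3531 in WT PPT livers against 320.3 and 289 in WT oil livers, and Krt4 alone gave 3308 and 3210.1 in WT PPT livers. The hepatocyte markers summed to 78633 and 74268 in WT PPT livers against 96977 and 98254 in WT oil livers. Plasma cells, which have a large ER, were represented by 10 markers, 1 of them (Derl3) also on the degradation list used below. These summed to 1241 and 1172 in WT PPT livers against 1363 and 1390.5 in WT oil livers. Sdc1, which was the brightest of them, gave 619 and 583 in WT PPT livers against 1016 and 1068 in WT oil livers, while the other 9 summed to 622 and 589 in WT PPT livers against 347 and 322 in WT oil livers. The part of the neutrophil, epithelial, hepatocyte and plasma cell markers in the result was not tested.

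The promoters of the 10 genes were searched for the elements through which the unfolded protein response is known to act. The sequences came from RefSeq promoters of build GRCm38.p6, each running from 250 bases before to 50 bases after the start of transcription. Of the 10 genes, 8 were in the table, and Manf and Hyou1 were not. The ER stress response element (ERSE) was searched as CCAAT, then 9 bases of any kind, then CCACG, and the ERSE-II as ATTGG, then 1 base of any kind, then CCACG, both on either strand. ERSE was found at Hspa5 and Creld2, and ERSE-II at Herpud1 and Dnajb11. These 2 motifs were therefore at 4 of 8 promoters of these genes, against 51 of all 32851 promoters in the table (0.155%). The genes were chosen by name as components of the response that these motifs serve. The excess can therefore follow from the choice of genes, and it is no test of the PPT response. The stretches that hold them are shown with the fixed letters of the match in capitals, all on the plus strand. The Xbp1 stretch is shown because it held neither CCAAT nor CCACG.
Hspa5, chr2:34771940-34772089: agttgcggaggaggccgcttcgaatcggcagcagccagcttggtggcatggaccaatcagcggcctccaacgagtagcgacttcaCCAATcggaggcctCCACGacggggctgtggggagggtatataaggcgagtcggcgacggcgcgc
Creld2, chr15:88819496-88819645: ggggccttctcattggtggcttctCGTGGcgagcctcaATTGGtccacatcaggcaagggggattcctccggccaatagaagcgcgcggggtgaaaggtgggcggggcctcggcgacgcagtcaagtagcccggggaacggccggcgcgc
Herpud1, chr8:94386279-94386428: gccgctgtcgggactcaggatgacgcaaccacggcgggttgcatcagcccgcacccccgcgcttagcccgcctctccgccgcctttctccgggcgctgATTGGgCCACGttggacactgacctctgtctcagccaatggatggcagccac
Dnajb11, chr16:22857842-22857871: cccggcggcgATTGGcCCACGcctggctgc
Xbp1, chr11:5520491-5520640: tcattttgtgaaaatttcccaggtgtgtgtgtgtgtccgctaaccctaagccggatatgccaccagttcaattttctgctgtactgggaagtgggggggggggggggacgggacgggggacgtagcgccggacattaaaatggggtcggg

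The match in Hspa5 ran from base -65 to base -47 on the strand of the gene, and that in Creld2 from -126 to -108 on the opposite strand, where it reads in the printed strand as the reverse complement. The Herpud1 match ran from -52 to -42 and the Dnajb11 match from +8 to +18, within the transcribed part. A shorter form of the element that ends in CCA after the same 9 bases, which every ERSE also contains, was at Hspa5, Creld2, Pdia4 and Herpud1, against 1.09% of all promoters. CCAAT, which is part of both ERSE forms, was at 7 of the 8 promoters (37.4% of all), and CCACG was likewise at 7 (32.8% of all). The XBP1 motif TGACGTGG was at 0 of the 8 (0.676% of all), and so was the oestrogen response element, searched as GGTCA, 3 bases of any kind and TGACC (0.07% of all), within these letters and this window. The 4 genes with an ERSE or ERSE-II had WT log2 differences of 1.10 to 2.38, and the 4 without, Sdf2l1, Dnajb9, Pdia4 and Xbp1, had 0.26 to 2.18, so the ranges overlapped. ERSE was also found at 5 of 24 other ER folding genes in the table (Hsp90b1, Calr, Canx, Pdia6 and Dnajc3) and at 2 of 14 degradation genes (Syvn1 and Derl3).

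In MOER livers the 10 genes did not share a direction with PPT. Herpud1 was called higher, 1635 and 1527 in MOER PPT livers against 971 and 1029 in MOER oil livers, a log2 difference of 0.65 ± 0.11 (adjusted p = 0.00439). Its call was lost without MOER PPT replicate 1 and without MOER oil replicate 1. Pdia4 was also called higher, 2539 and 2546 in MOER PPT livers against 2043 and 2005 in MOER oil livers (0.33 ± 0.080, adjusted p = 0.0468). Manf was called lower, 1106 and 1154 in MOER PPT livers against 1568 and 1428 in MOER oil livers (-0.40 ± 0.090, adjusted p = 0.0305). The calls of Pdia4 and Manf were lost in 18 and 15 of 25 alternatives, 10 of them fits without a single array in each case. Over all probe sets, 2.35% were called higher and 2.31% lower. The median log2 difference of the 10 genes was 0.12, against 0.00 over all probe sets.

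The other 7 genes were not called in MOER livers. Sdf2l1 had 719 and 676 in MOER PPT livers and 575 and 562 in MOER oil livers (log2 difference 0.29, adjusted p = 0.159). Hspa5 had 5160 and 5221 in MOER PPT livers and 5654 and 5587 in MOER oil livers (-0.11, adjusted p = 0.638), and Creld2 had 439.9 and 388 in MOER PPT livers and 542 and 486 in MOER oil livers (-0.30, adjusted p = 0.235). For Dnajb9 the arrays overlapped, 586 and 799.6 in MOER PPT livers against 768 and 694 in MOER oil livers (-0.09, adjusted p = 0.853). Dnajb11 (0.15), Hyou1 (0.16) and Xbp1 (0.09) differed by less on the log2 scale than any called member. The acinar markers, at 690.0 and 649 in MOER PPT livers against 51569 and 41298 in MOER oil livers with 4 and 15 of 15 above the 40th percentile and none at 0, moved with this comparison. Acinar cells also have a large ER, and the part of these markers in the MOER response was not tested.

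In ERKO livers the genes split. Sdf2l1 was called higher, 1017 and 1015 in ERKO PPT livers against 553 and 466 in ERKO oil livers, a log2 difference of 0.98 ± 0.097 (1.99-fold, adjusted p = 9.22e-05). Herpud1 was called lower, 856 and 843 in ERKO PPT livers against 1898 and 1543 in ERKO oil livers, a log2 difference of -0.997 ± 0.11 (2.03-fold lower, adjusted p = 1.60e-04). Both calls were kept in every fit without a single array. Smaller differences were called for Dnajb11, 704 and 653.5 in ERKO PPT livers against 577 and 452.5 in ERKO oil livers (0.40 ± 0.11, adjusted p = 0.0341). Hyou1 was called lower, 445 and 442 in ERKO PPT livers against 563 and 548 in ERKO oil livers (-0.31 ± 0.084, adjusted p = 0.0281). Pdia4 was lower as well, 1961 and 1939.5 in ERKO PPT livers against 2447 and 2314 in ERKO oil livers (-0.29 ± 0.080, adjusted p = 0.0343). These 3 calls were lost in 17, 8 and 13 of 24 alternatives, for Dnajb11, Hyou1 and Pdia4 in that order.

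Over all probe sets in ERKO livers, 9.48% were called higher and 8.46% lower, so 52.8% of the calls were higher, a share that was 42.3% with quantile normalisation and 40.4% with median centring. It was 69.6% without ERKO oil replicate 1 and 38.1% without ERKO oil replicate 2. The remaining 5 genes were not called. Hspa5 had 5125 and 5296 in ERKO PPT livers and 6553 and 5894 in ERKO oil livers (-0.25, adjusted p = 0.0644). Manf had 1915 and 1936 in ERKO PPT livers and 1736 and 1632 in ERKO oil livers (0.19, adjusted p = 0.169), Creld2 differed by -0.05 and Xbp1 by 0.01. Replicate 1 of the ERKO oil arrays was above replicate 2 for all 10 genes. The skeletal muscle markers (10700.0 and 10953 in ERKO PPT livers, 526 and 560.0 in ERKO oil livers, with 10 and 4 of 10 above the 40th percentile and none at 0) moved with this comparison. The stratified epithelium markers did too, at 6614 and 6566 in ERKO PPT livers against 339 and 370.5 in ERKO oil livers, led by Krtdap. The part of both in the ERKO response was not tested.

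**Figure D2:**
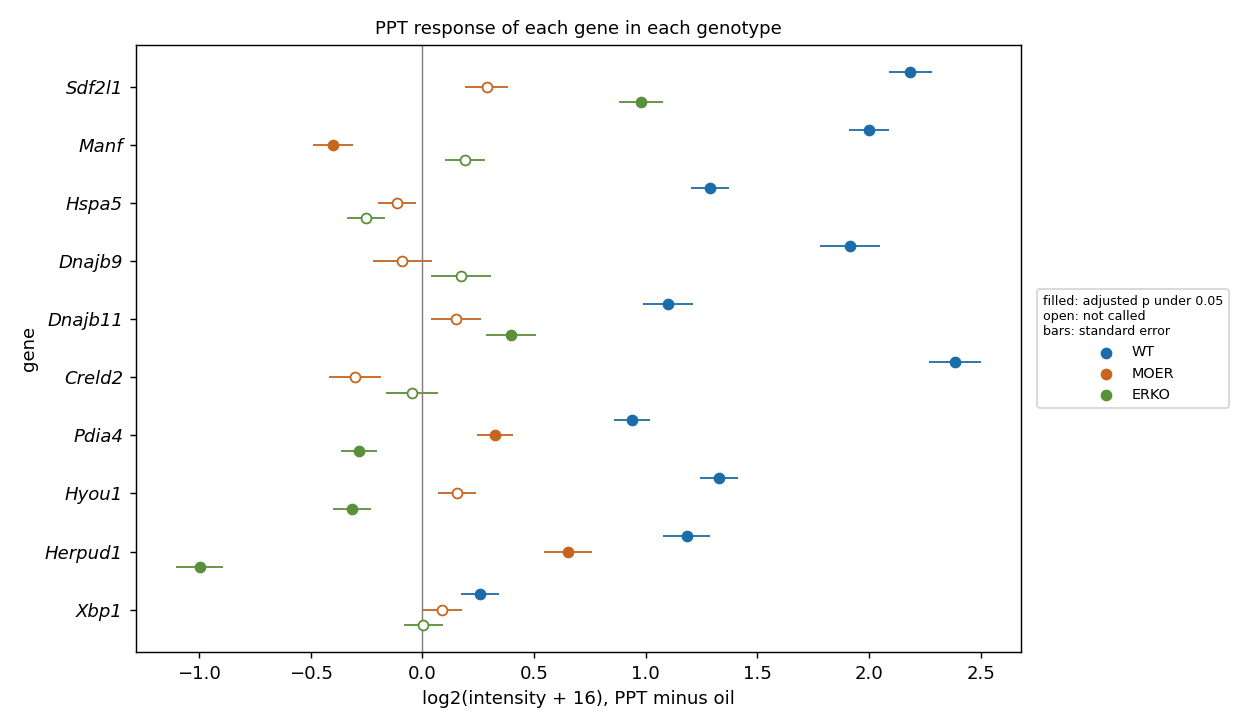
PPT minus oil difference of each gene on log2(intensity + 16), for WT, MOER and ERKO livers from top to bottom within a gene. Bars are standard errors of the fit, and filled points had an adjusted p under 0.05. The WT points lie to the right of the MOER and ERKO points for every gene, while the ERKO points span -0.997 (Herpud1) to 0.98 (Sdf2l1).

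The size of the PPT response was then compared between genotypes with interaction contrasts. The response in WT livers exceeded that in MOER livers for 9 of 10 genes, by 0.53 (Herpud1) to 2.68 (Creld2) on the log2 scale, where 10.5% of all probe sets were called in this direction. It exceeded that in ERKO livers for the same 9 genes, by 0.70 (Dnajb11) to 2.43 (Creld2), where 10.3% of all probe sets were called in this direction. Both comparisons use the same WT arrays. Xbp1 was the gene not called, with differences of 0.17 against MOER (adjusted p = 0.403) and 0.25 against ERKO (adjusted p = 0.171). The Herpud1 difference between WT and MOER (adjusted p = 0.0273) was lost in 9 of 24 alternatives. The MOER response rests on the MOER oil arrays with their acinar markers, and the ERKO response on the ERKO PPT arrays with their muscle and epithelium markers, whose part in these differences was not tested.

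MOER and ERKO responses differed from each other for 5 genes. The MOER response was higher for Herpud1 (1.65 ± 0.15, adjusted p = 5.74e-05), Pdia4 (0.61 ± 0.11, adjusted p = 0.00721) and Hyou1 (0.47 ± 0.12, adjusted p = 0.0304). It was lower for Sdf2l1 (-0.69 ± 0.14, adjusted p = 0.00971) and Manf (-0.59 ± 0.13, adjusted p = 0.0144). Over all probe sets 5.88% were called higher and 5.59% lower. The call of Hyou1 was lost in 13 of 22 alternatives and that of Manf in 5. Herpud1 was thus the gene whose response differed most between the mutants, called higher with PPT in MOER livers and lower with PPT in ERKO livers.

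Under PPT all 10 genes were lower in MOER and in ERKO livers than in WT livers. Dnajb9 was 4.64-fold lower in MOER PPT than in WT PPT livers (log2 difference -2.21 ± 0.13, adjusted p = 5.34e-07), Creld2 3.99-fold, Manf 3.50-fold, Sdf2l1 2.57-fold and Herpud1 2.53-fold. The other 5 genes were between 1.29-fold (Pdia4) and 1.85-fold (Hspa5) lower. In ERKO PPT livers Herpud1 was 4.70-fold lower than in WT PPT livers (-2.21 ± 0.11, adjusted p = 7.25e-08), Dnajb9 3.55-fold, Creld2 3.21-fold, Hyou1 2.70-fold and Manf 2.05-fold. The remaining 5 were between 1.61-fold (Dnajb11) and 1.85-fold (Hspa5) lower. Over all probe sets 20.1% were called lower in MOER and 17.7% lower in ERKO. Of all calls between MOER PPT and WT PPT 43.4% were higher, and 33.0% with median centring. The MOER oil and ERKO oil arrays enter these comparisons only through the pooled estimate of spread. Neutrophil markers summed to 4321 and 4249 in WT PPT livers, mostly Prtn3 (3634 and 3575). They summed to 1405 and 1353 in MOER PPT livers and to 1624 and 1538 in ERKO PPT livers. The 9 markers other than Prtn3 went the other way, with 687 and 673 in WT PPT livers against 1049 and 1051 in MOER PPT livers. In ERKO PPT livers these 9 summed to 1486 and 1405. Stratified epithelium markers summed to 3696 and 3531 in WT PPT livers, of which Krt4 gave 3308 and 3210.1. They summed to 449.96 and 398 in MOER PPT livers and to 6614 and 6566 in ERKO PPT livers. The 9 markers other than Krt4 summed to 388 and 321 in WT PPT livers and 430 and 382 in MOER PPT livers. In ERKO PPT livers these 9 summed to 6163 and 6131. Skeletal muscle markers summed to 10700.0 and 10953 in ERKO PPT livers against 661 and 610.2 in WT PPT livers. The part of these markers in the result was not tested.

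Under oil several of the same genes were higher in the mutants than in WT. Creld2 (542 and 486 in MOER oil livers against 304 and 304 in WT oil livers, log2 difference 0.73 ± 0.12), Manf (0.61 ± 0.090), Sdf2l1 (0.55 ± 0.097), Hspa5 (0.52 ± 0.085) and Hyou1 (0.37 ± 0.084) were called higher in MOER oil than in WT oil livers, with adjusted p from 0.00357 to 0.0303. Herpud1 was called lower, 971 and 1029 in MOER oil livers against 1750.3 and 1750.1 in WT oil livers (-0.80 ± 0.11, adjusted p = 0.00190). Over all probe sets 2.13% were called higher and 3.53% lower, so 37.6% of calls were higher, and 18.6% with median centring. The count of 5 fell to 1 without WT oil replicate 1, 0 without WT oil replicate 2, 1 without MOER oil replicate 1 and 2 without MOER oil replicate 2 (calls over all probe sets were between 249 and 433 in those fits, against 1082 with all arrays). The acinar markers stood at 51569 and 41298 in MOER oil livers against 491 and 611 in WT oil livers. Neutrophil markers summed to 1332 and 1145 in MOER oil livers against 492 and 453 in WT oil livers. The part of the acinar and neutrophil markers in this result was not tested.

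In ERKO oil livers, where the acinar markers summed to 507 and 775, 5 genes were also called higher than in WT oil livers. Manf had 1736 and 1632 in ERKO oil livers against 1019.9 and 934 in WT oil livers (0.78 ± 0.090, adjusted p = 7.87e-04), and Creld2 had 593 and 475 in ERKO oil livers against 304 and 304 in WT oil livers (0.77 ± 0.12, adjusted p = 0.00423). Hspa5 differed by 0.66 (adjusted p = 0.00168), Pdia4 by 0.48 (adjusted p = 0.00870) and Sdf2l1 by 0.39 (adjusted p = 0.0444), the last lost in 19 of 25 alternatives. Xbp1 was called lower, 1475 and 1354 in ERKO oil livers against 1943 and 1983 in WT oil livers (-0.47 ± 0.086, adjusted p = 0.0133). Of all probe sets, 2.24% were called higher and 2.77% lower. Without WT oil replicate 1 or replicate 2 the count of 5 was 3, and Xbp1 was no longer called. Herpud1 had 1898 and 1543 in ERKO oil livers against 1750.3 and 1750.1 in WT oil livers, which overlapped (-0.03, adjusted p = 0.876). Neutrophil markers summed to 2751 and 2023 in ERKO oil livers against 492 and 453 in WT oil livers, and their part was not tested.

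**Figure D3:**
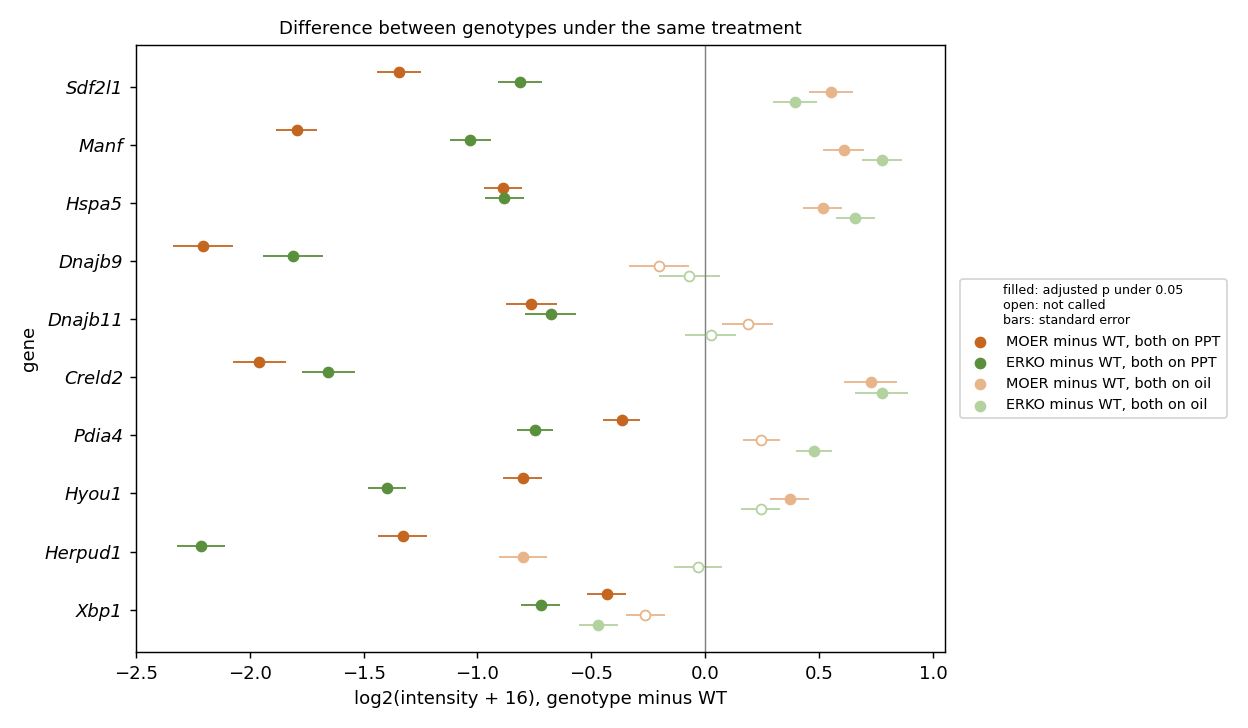
Difference between genotypes under the same treatment on log2(intensity + 16), with the 2 comparisons under PPT (dark) above the 2 under oil (light) within a gene. Bars are standard errors, and filled points had an adjusted p under 0.05. All dark points lie below 0, from -0.37 (Pdia4) to -2.21 (Dnajb9 and Herpud1). The light points of Manf, Creld2, Hspa5, Sdf2l1, Hyou1, Pdia4 and Dnajb11 lie above 0, and those of Dnajb9, Herpud1 and Xbp1 below 0.

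Ordered by group mean, WT PPT livers had the highest level of all 10 genes, and for all 10 both WT PPT arrays were above each of the other 10 arrays, as were 18.1% of all probe sets. The lowest group was WT oil for 6 genes, Sdf2l1, Manf, Hspa5, Dnajb11, Creld2 and Pdia4. It was ERKO PPT for Hyou1 and Herpud1, MOER PPT for Dnajb9 and ERKO oil for Xbp1. Sdf2l1, Manf, Dnajb9 and Dnajb11 had ERKO PPT as the second highest group, Hspa5 and Creld2 had ERKO oil, Pdia4 and Hyou1 had MOER PPT, and Herpud1 and Xbp1 had WT oil. For Dnajb9 the 5 groups below WT PPT lay between 693 and 906 on average, and no PPT response among the mutants nor any oil comparison with WT was called.

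The other genes of the pathway were followed in 6 lists. Of 29 other ER folding enzymes and chaperones, 22 rose and 1 fell with PPT in WT livers (median log2 difference 0.69, against 0.02 over all probe sets, of which 14.8% were called higher and 16.2% lower). The corresponding shares were 2.35% higher and 2.31% lower in MOER livers, and 9.48% higher and 8.46% lower in ERKO livers. Fkbp11, an ER peptidyl-prolyl isomerase, had 878 and 868 in WT PPT livers against 92.6 and 92.7 in WT oil livers, a log2 difference of 3.03 ± 0.16 (adjusted p = 2.18e-07), more than any of the 10 genes. Pdia6, a disulfide isomerase that acts with BiP, rose by 1.32, Dnajc3, another BiP co-chaperone, by 1.07, and Erp29 by 1.03. Pdia5, also a disulfide isomerase, fell by 0.37 (adjusted p = 0.0160; the call was lost without any 1 of the 4 WT arrays), with 525 and 532 in WT PPT livers against 699.6 and 676 in WT oil livers. In MOER livers 6 of the 29 rose, among them Pdia5 (0.73) and Pdia6 (0.39), and limma called 0 lower (1 at an unadjusted p under 0.05). The call of Pdia6 was lost in 12 of 25 alternatives, 8 of them fits without a single array. In ERKO livers 7 rose and 1 fell, and Fkbp11 was among those that rose, with 248 and 254 in ERKO PPT livers against 100.8 and 59.3 in ERKO oil livers (1.51, adjusted p = 1.55e-04).

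ER-associated degradation returns misfolded proteins to the cytosol for the proteasome. Of 19 genes, 11 rose with PPT in WT livers and limma called 0 lower (0 at an unadjusted p under 0.05), with a median log2 difference of 0.36. Over all probe sets 14.8% were called higher and 16.2% lower. Derl3, a derlin of the export channel, rose by 1.55, Syvn1, the ubiquitin ligase HRD1, by 1.36, Edem3, which trims mannose from misfolded glycoproteins, by 1.02, and Ubxn4 by 0.77. In ERKO livers 1 rose and 4 fell, where 9.48% of all probe sets were called higher and 8.46% lower. Derl3 was the one that rose (0.72), with 301 and 305 in ERKO PPT livers against 173 and 184 in ERKO oil livers, and Syvn1 fell by 0.58 (adjusted p = 0.00343). In MOER livers 2 rose, Derl3 among them (0.50, lost in 14 of 25 alternatives), and limma called 0 lower (1 at an unadjusted p under 0.05). There 2.35% of all probe sets were called higher and 2.31% lower. Syvn1 had 577 and 634 in WT PPT livers, and between 139 and 239 on the 10 other arrays.

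Of 17 sensors and transcription factors of the response, 8 rose and 1 fell in WT livers (median 0.37). Over all probe sets 14.8% were called higher and 16.2% lower. Ern1, which encodes the sensor IRE1, had 416 and 432 in WT PPT livers against 179.7 and 146 in WT oil livers (1.30 ± 0.13, adjusted p = 1.87e-05). Creb3 rose by 1.02, Creb3l3, a liver factor cleaved at the Golgi like ATF6, by 0.76, and Creb3l2 by 0.66. Nfyb, a subunit of the NF-Y complex that binds CCAAT, fell by 0.59 (adjusted p = 7.31e-04). In MOER livers limma called 0 higher (2 at an unadjusted p under 0.05) and 1 lower, and in ERKO livers 0 higher (1 at an unadjusted p under 0.05) and 3 lower, Creb3 (-0.33) and Creb3l3 (-0.48) among them. The shares over all probe sets were 2.35% higher and 2.31% lower in MOER livers, and 9.48% higher and 8.46% lower in ERKO livers. The call of Creb3 was lost in 18 of 24 alternatives, 11 of them fits without a single array, and that of Creb3l3 was lost without ERKO PPT replicate 2.

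ATF4 is the factor of the branch that follows the sensor PERK, and 13 of its amino acid stress targets were bright enough to test. With PPT in WT livers 8 rose and 1 fell, with a median of 0.65, where 14.8% of all probe sets were called higher and 16.2% lower. Atf3 exceeded the 40th percentile only on the WT PPT arrays and so was tested only because it was bright there, and without it 7 of 12 rose, with a median of 0.59. Ddit4, an inhibitor of mTOR signalling, rose by 1.39. Atf3 (127 and 155 in WT PPT livers against 35.05 and 38.1 in WT oil livers) was called higher. So was Asns, the asparagine synthetase (139.7 and 123 in WT PPT livers against 33.2 and 33.3 in WT oil livers). Their WT oil values were under the 40th percentile of their arrays, so the size of their log2 difference depends on the added constant. Asns averaged 131 in WT PPT livers, against 139 in MOER oil, 129 in ERKO PPT and 181 in ERKO oil livers. In MOER PPT livers Asns averaged 73.6. Cth, which makes cysteine from cystathionine, fell by 1.82 (adjusted p = 2.95e-07), with 2372 and 2466 in WT PPT livers against 8436 and 8758 in WT oil livers. Asns and Ddit4 fell in MOER livers, by 0.81 (adjusted p = 0.0137) and 0.51 (adjusted p = 0.0357), where 2.31% of all probe sets were called lower. The call of Asns was lost without MOER PPT replicate 2 and without MOER oil replicate 1, and that of Ddit4 in 11 of 25 alternatives, 7 of them fits without a single array. The acinar markers of the MOER oil arrays moved with this comparison too, and their part in it was not tested.

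Among 15 cytosolic and mitochondrial heat shock proteins, which belong to a separate stress response, 8 rose and 2 fell in WT livers (median 0.39), where 14.8% of all probe sets were called higher and 16.2% lower. Hsph1 rose by 1.37, Hspa4 by 1.12, Hsp90aa1 by 0.74 and Dnaja1 by 0.67, while the small heat shock protein Hspb1 fell by 0.64 and the mitochondrial protease Lonp1 by 0.43 (a call lost without any 1 of the 4 WT arrays). In ERKO livers 2 rose and 5 fell, where 9.48% of all probe sets were called higher and 8.46% lower. In MOER livers limma called 0 in either direction (1 higher and 1 lower at an unadjusted p under 0.05), where 2.35% of all probe sets were called higher and 2.31% lower.

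The secreted products that hepatocytes fold in the ER went the other way in WT livers. Of 19 secreted hepatocyte proteins limma called 0 higher (0 at an unadjusted p under 0.05) and 12 lower, and 7 were not called. The median was -0.43. Over all probe sets 14.8% were called higher and 16.2% lower. The summed hepatocyte marker level was also lower in WT PPT livers, as given above. Alb, Ttr and Apoa1 are in both sets, so the sum and the list are not independent. Serpina6, the corticosteroid-binding globulin, fell to 465 and 417 in WT PPT livers, against 4548 and 4648 in WT oil livers (-3.34 ± 0.094, adjusted p = 3.34e-09). Fetub fell by 1.24, plasminogen (Plg) by 1.08 and prothrombin (F2) by 0.83. All 4 were also called lower with PPT in ERKO livers, by 0.46 (Plg) to 1.45 (Serpina6), and none of the 4 was called in MOER livers. In ERKO livers 5 of the 19 fell, where 8.46% of all probe sets were called lower.

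**Figure D4:**
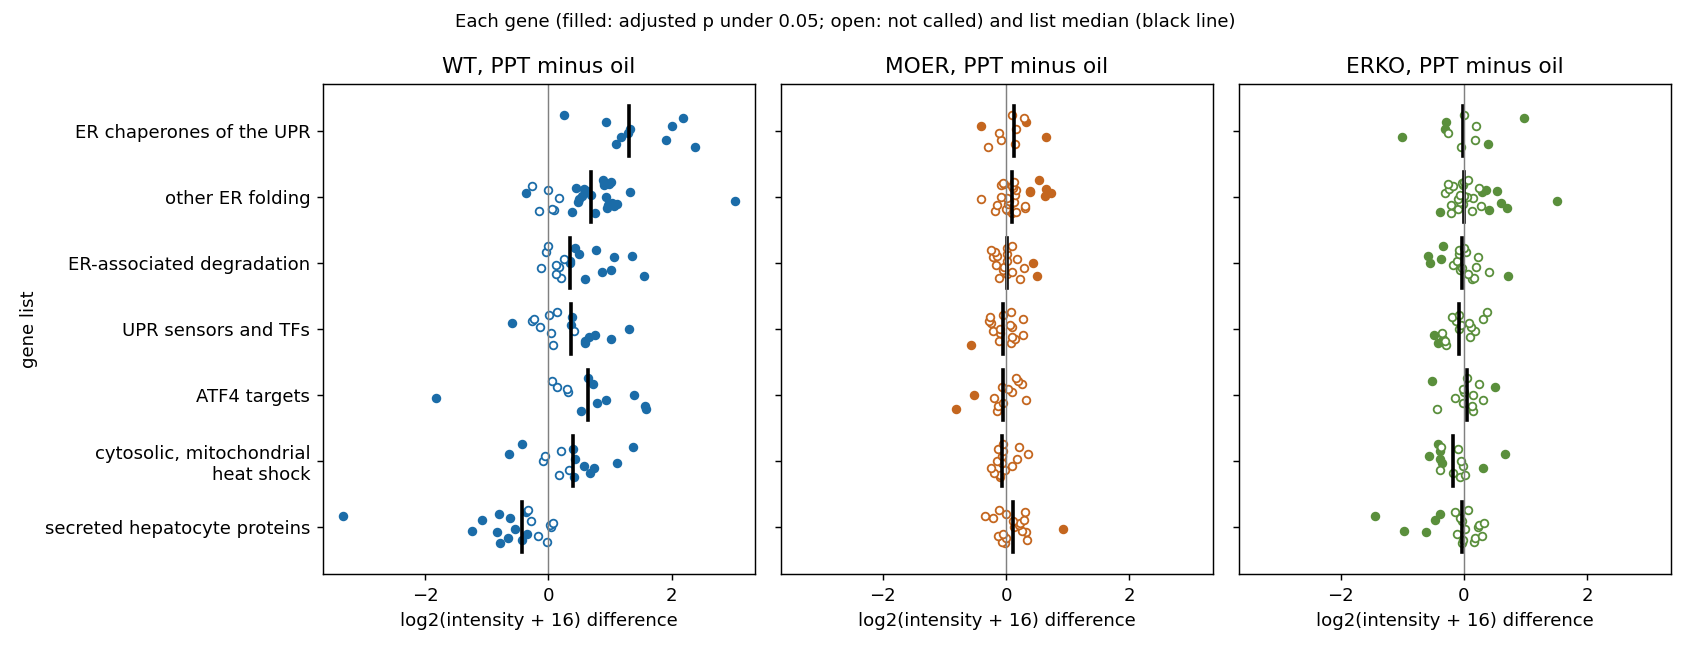
PPT minus oil difference on log2(intensity + 16) of each gene in the 10 ER chaperone genes and 6 other lists, in WT, MOER and ERKO livers. Each circle is 1 gene, filled where the adjusted p was under 0.05, and the black line is the median of the list. In WT livers the medians run from 1.31 for the 10 genes to -0.43 for secreted hepatocyte proteins, and in MOER and ERKO livers all medians lie between -0.18 and 0.12.

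The genes whose log2 values over the 12 arrays were most like the mean of the 10 genes were Ero1b (Pearson r = 0.989), Adh7 (0.986), Plau (0.986), Ssr2 (0.984), Cidec (0.984), Arfgef2, Akr1b8, 3930402G23Rik, 2210407C18Rik and Nostrin (0.982 each). The 12 arrays include the 2 WT PPT arrays that were highest for all 10 genes, so these values describe a shared step in that group. Cidec (519 and 461 in WT PPT livers, 14.4 to 35.3 on the other 10 arrays) exceeded the 40th percentile only on the WT PPT arrays. So did 2210407C18Rik (2972 and 2656 in WT PPT livers, 6.97 to 30.9 on the other 10 arrays). Both were therefore tested only because they were bright there. Ero1b, the ER oxidase that recharges disulfide isomerases, had 731 and 766 in WT PPT livers and 325 to 460.0 on the other 10 arrays. Ssr2, a subunit of the translocon-associated protein complex, had 3391 and 3269 in WT PPT livers and between 1396 and 1735 on the other 10.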

How the data were processed

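The deposited table held 1 linear intensity per probe set and array for 28815 probe sets, made by the authors with a probe summary and normalisation not given in the sources used here. A Cyber-T test at 99.99% confidence with a minimum change of 2-fold was the authors' own, per the labels. The deposited intensities were not normalised again, since array medians were close, and 16 was added before log2 was taken. To be tested, a probe set had to exceed the 40th percentile on at least 2 arrays. A limma fit with a mean for each of the 6 groups used the 12 arrays together (lmFit and eBayes, limma 3.58.1, R 4.3.3; 6 residual degrees of freedom, 10.47 after moderation), two-sided, with Benjamini-Hochberg adjustment over 19119 probe sets. Arrays have no read depth, and their number limits the precision.

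Symbols came from the platform's annotation, which left 5430 probe sets unnamed and gave 1605 more than one symbol and 21780 exactly 1. Mesdc2, Mbtps2, Hspa1b, Hsp90ab1 and Gc had no probe set with 1 symbol, and 4 further list genes were under the filter. The 10 genes and the lists were chosen with earlier results of these data known. Up to 4 genes per list were named by the smallest p in the WT comparison, with any gene called against the majority of its list, and the 10 genes most correlated with the mean of the 10. Errors are SD of 2 arrays or standard errors of the fit. The scripts were tested on simulated data. Motif searches (Python 3.11.15) used both strands. Alternatives were another added constant (1 or 64), another filter (none or the 60th percentile), quantile normalisation, median centring, a trended prior, a replicate block, each array left out, a 2-fold minimum, a Cyber-T-style test at p under 1e-04 and 2-fold, and only the groups of a comparison. Leaving out both MOER oil, both ERKO PPT or both ERKO oil arrays was chosen after seeing the data.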

Additional observations from a re-analysis of the deposited data

Results flagged for a closer look

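The results below stand out because the PPT response of a gene differed between genotypes in a test of the difference itself (the interaction contrast in limma). All are differences of log2 responses with adjusted p under 0.05. The WT response minus the MOER response was 1.90 for Sdf2l1, 2.40 for Manf, 1.40 for Hspa5, 2.00 for Dnajb9 and 0.95 for Dnajb11. It was 2.68 for Creld2, 0.61 for Pdia4, 1.17 for Hyou1 and 0.53 for Herpud1. The WT response minus the ERKO response was 1.21 for Sdf2l1, 1.81 for Manf, 1.54 for Hspa5, 1.74 for Dnajb9 and 0.70 for Dnajb11. It was 2.43 for Creld2, 1.22 for Pdia4, 1.64 for Hyou1 and 2.18 for Herpud1. The MOER response minus the ERKO response was -0.69 for Sdf2l1, -0.59 for Manf, 0.61 for Pdia4, 0.47 for Hyou1 and 1.65 for Herpud1. Groups of 2 arrays are too small to look for a single outlying array.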

How the results depend on the processing

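Of all values computed for the 10 genes and the listed genes under each alternative, 5249 kept their direction and their side of the threshold or their size, 386 calls were lost, 75 were gained, 261 counts moved and 19 differences, of 11 uncalled results, changed sign without being called. The cause was not tested. Without a single array, the uncalled log2 differences that changed sign ran as follows. For MOER PPT against MOER oil they ran from -0.31 to 0.13 for Dnajb9, -0.13 to 0.016 for Edem3 and -0.15 to 0.028 for Hspa4. For ERKO PPT against ERKO oil they ran from -0.20 to 0.11 for Creld2, -0.056 to 0.066 for Xbp1, -0.23 to 0.063 for Ern1, -0.0084 to 0.18 for Nfyb and -0.054 to 0.33 for Atf3. For ERKO oil against WT oil they ran from -0.16 to 0.017 for Dnajb9, -0.15 to 0.19 for Dnajb11 and -0.18 to 0.12 for Herpud1. With quantile normalisation Xbp1 (-0.019) and Atf3 (-0.047) in the ERKO response and Herpud1 (0.017) in the oil comparison changed sign, as did Xbp1 (-0.041) with median centring. The numbers below are how many of the 10 genes were called. All 10 were called higher with PPT in WT livers, and 8 to 10 in the alternatives, with 9 to 10 when a single array was left out. The WT response exceeded the MOER response for 9 (6 to 9 in the alternatives, 8 to 9 without a single array) and the ERKO response for 9 (8 to 10 in the alternatives, 9 without any single array). With PPT in MOER livers, 2 were called higher, and this was 1 with an added constant of 1, no filter, median centring, the replicate block, only the groups compared, or without both ERKO PPT arrays, 0 with the 2-fold minimum or the Cyber-T-style test, and 0 to 3 without a single array. The 1 called lower there was 0 with no filter, the 2-fold minimum, the Cyber-T-style test, only the groups compared or without both ERKO PPT arrays, and 0 to 1 without a single array. With PPT in ERKO livers, the 2 called higher were 1 with no filter, median centring, only the groups compared or without both MOER oil arrays, 0 with the 2-fold minimum or the Cyber-T-style test, and 1 to 2 without a single array. The 3 called lower there were 1 with no filter or only the groups compared, 0 with the 2-fold minimum or the Cyber-T-style test, and 1 to 4 without a single array. For the MOER minus the ERKO response, the 3 called higher were 1 at the 2-fold minimum and 2 to 3 without a single array, and the 2 called lower were 0 at the 2-fold minimum, 1 with only the groups compared and 1 to 3 without a single array. Between MOER oil and WT oil livers, the 5 called higher were 0 with the 2-fold minimum or the Cyber-T-style test and 0 to 6 without a single array. The 1 called lower was 2 with median centring, the trended prior or without both ERKO oil arrays, 0 with the 2-fold minimum or the Cyber-T-style test, and 1 to 2 without a single array. Between ERKO oil and WT oil livers, the 5 called higher and the 1 called lower were 0 with the 2-fold minimum, the Cyber-T-style test or only the groups compared, and without a single array they were 3 to 5 and 0 to 1. The 10 called lower in MOER PPT and in ERKO PPT than in WT PPT livers were 5 each with the 2-fold minimum or the Cyber-T-style test, and 10 without any single array.

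Same-numbered arrays deviated together with r from -0.147 to 0.377 over 15 pairs of groups, over 0.1 in 5, which does not show that the numbers pair the arrays, and the labels do not tie the numbers to the repeat of the study. With that number as a replicate block, WT calls over all probe sets were 6027, against 5921 without the block.

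Calls over all probe sets moved by more than 1.5 times in some settings. For PPT against oil in WT livers they were 1128 with the 2-fold minimum and 1125 with the Cyber-T-style test. In MOER livers, 890 calls became 1480 with quantile normalisation, 169 and 168 with the 2-fold minimum and the Cyber-T-style test, 437 to 467 without any 1 of the 4 MOER arrays, and 1672 without either or both ERKO oil arrays. In ERKO livers, 3430 became 576 with only the groups compared, 307 and 261 with the 2-fold minimum and the Cyber-T-style test, 1766 without ERKO PPT replicate 1, 1200 without ERKO PPT replicate 2 and 5346 without ERKO oil replicate 1. For MOER oil against WT oil, 1082 became 696 with no filter, 1716 with median centring, 180 and 129 with the 2-fold minimum and the Cyber-T-style test, 249 to 433 without any 1 of the MOER oil or WT oil arrays, and 3332 without either or both ERKO oil arrays. For ERKO oil against WT oil, 957 became 552 with no filter, 1664 with quantile normalisation, 1626 with the trended prior, 109 and 89 with the 2-fold minimum and the Cyber-T-style test, 80 with only the groups compared, 606 without both ERKO PPT arrays, 621 without both MOER oil arrays 6329 without ERKO oil replicate 1, and 230 to 634 without any other single array except ERKO oil replicate 2 (827). Under PPT, 6794 calls for MOER against WT became 1229 and 1230, and 6133 for ERKO against WT became 1149 and 1145, with the 2-fold minimum and the Cyber-T-style test, and 4418 and 4007 without WT PPT replicate 2. At the 2-fold minimum, the WT minus MOER response had 1354 calls against 4124, the WT minus ERKO response 1290 against 4266, and the MOER minus ERKO response 505 against 2193. The last had 3541 with quantile normalisation, 1037 with only the groups compared, 1078 to 1309 without any 1 of the MOER or ERKO PPT arrays, and 4802 and 3407 without ERKO oil replicates 1 and 2. The WT minus ERKO response had 6735 without ERKO oil replicate 1.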
